A study of Mus musculus with 48 samples.

Results

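The 8 libraries described here, of 48 in the series, hold total RNA of NIH 3T3 cells, an immortalised mouse embryonic fibroblast line, that carried a control hairpin (shCTRL). They were chosen by time after a synchronising serum treatment, so that 2 opposite phases of the circadian clock face each other. At 24, 26, 44 and 46 h the RNA of the clock activator gene Arntl (Bmal1) was low, and at 32, 34, 36 and 38 h it was high. The mean time of each side was 35 h, so a straight drift over the time course cancels from the difference between the sides. All cells were grown with 10% fetal bovine serum, held in 50% horse serum for 2 h per the labels, and labelled with the uridine analogue 4sU before RNA extraction. The total RNA is what was set aside when 30 ug of each extract went into the pull-down of 4sU-labelled RNA. For comparison, a second stable line with a hairpin against Bmal1 (shBmal1) gave 8 total RNA libraries at the same times, and the 4sU-labelled RNA of the control line gave 8 more. Each time point is 1 library of 1 stable line, so the 4 libraries of a side differ in time as well as in culture. P-values therefore measure the spread between single libraries of a side, not between repeats of a time. On the low side that spread also holds any change from 24 and 26 h to 44 and 46 h. The high side is 1 unbroken stretch of a single cycle.

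Circadian clocks of mammalian cells run on feedback loops of transcription. The proteins ARNTL and CLOCK bind E-box elements together and activate the Per, Cry, Nr1d and Dbp genes, among others. The PER and CRY proteins then inhibit ARNTL and CLOCK. The nuclear receptors NR1D1 and NR1D2 (REV-ERB alpha and beta) repress Arntl and Nfil3 through RORE elements, at which the ROR receptors activate. DBP, TEF and HLF activate through D-box elements and NFIL3 represses through them. In synchronised fibroblasts, Arntl RNA therefore runs against the RNAs of the E-box targets.

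The promoters below belong to clock genes on opposite sides of the comparison and were picked because their windows hold a match to an element. They therefore do not show how common the elements are among clock genes. Dbp, Nr1d2, Cry2 and Bhlhe40 had no match or no promoter entry. A second Tef window, chr15:81811164-81811463 (+), also holds an E-box and is not shown. The sequences are RefSeq windows on GRCm38.p6, from 250 bases before to 50 bases after an annotated start, written 5′ to 3′ on the gene's strand. Capitals mark a match to the RORE core TAGGTCA in Arntl and Nfil3, to the E-box CACGTG in Per1, Tef, Ciart and Bhlhe41, and to the D-box TTATGTAA in Per3. Matches were searched on both strands, and the capitals in Nfil3 are the reverse complement of the RORE core. The windows are chr7:113207261-113207560 (+) for Arntl, chr13:52980990-52981289 (−) for Nfil3 and chr11:69098699-69098998 (+) for Per1. They are chr15:81802423-81802722 (+) for Tef, chr3:95882179-95882478 (−) for Ciart, chr6:145865371-145865670 (−) for Bhlhe41 and chr4:151044616-151044915 (−) for Per3.
Arntl: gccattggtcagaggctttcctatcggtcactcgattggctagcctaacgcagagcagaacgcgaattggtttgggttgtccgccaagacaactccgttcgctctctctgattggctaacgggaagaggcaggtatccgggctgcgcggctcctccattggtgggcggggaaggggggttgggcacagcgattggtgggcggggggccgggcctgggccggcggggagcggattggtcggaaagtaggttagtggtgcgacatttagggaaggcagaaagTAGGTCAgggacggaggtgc
Nfil3: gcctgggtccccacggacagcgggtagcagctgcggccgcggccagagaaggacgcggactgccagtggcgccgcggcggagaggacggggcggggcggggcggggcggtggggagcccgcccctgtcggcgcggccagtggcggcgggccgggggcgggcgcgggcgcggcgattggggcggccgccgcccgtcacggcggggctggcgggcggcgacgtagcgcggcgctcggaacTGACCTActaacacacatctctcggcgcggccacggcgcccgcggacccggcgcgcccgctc
Per1: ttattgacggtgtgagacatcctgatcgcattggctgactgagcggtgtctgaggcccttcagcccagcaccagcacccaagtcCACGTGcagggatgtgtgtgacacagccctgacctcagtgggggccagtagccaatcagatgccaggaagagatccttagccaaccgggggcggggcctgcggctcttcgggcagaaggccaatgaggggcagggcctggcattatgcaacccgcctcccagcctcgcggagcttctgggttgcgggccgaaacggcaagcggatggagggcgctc
Tef: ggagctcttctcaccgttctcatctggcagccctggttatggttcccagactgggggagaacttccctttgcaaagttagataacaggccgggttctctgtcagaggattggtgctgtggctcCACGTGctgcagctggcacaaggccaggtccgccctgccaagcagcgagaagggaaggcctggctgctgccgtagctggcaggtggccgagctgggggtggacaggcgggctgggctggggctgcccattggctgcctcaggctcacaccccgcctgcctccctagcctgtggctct
Ciart: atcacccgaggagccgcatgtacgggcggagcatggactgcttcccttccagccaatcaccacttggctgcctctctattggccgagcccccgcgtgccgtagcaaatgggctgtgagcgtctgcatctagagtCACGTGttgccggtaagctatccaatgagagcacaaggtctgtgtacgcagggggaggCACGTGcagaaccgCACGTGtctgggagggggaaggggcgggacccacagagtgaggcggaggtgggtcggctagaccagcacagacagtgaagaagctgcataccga
Bhlhe41: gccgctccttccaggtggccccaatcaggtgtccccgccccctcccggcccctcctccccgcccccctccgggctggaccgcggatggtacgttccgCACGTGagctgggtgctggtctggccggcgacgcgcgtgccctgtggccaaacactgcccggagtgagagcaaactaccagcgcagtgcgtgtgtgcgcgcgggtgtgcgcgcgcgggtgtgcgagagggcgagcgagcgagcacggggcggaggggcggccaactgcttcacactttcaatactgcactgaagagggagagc
Per3: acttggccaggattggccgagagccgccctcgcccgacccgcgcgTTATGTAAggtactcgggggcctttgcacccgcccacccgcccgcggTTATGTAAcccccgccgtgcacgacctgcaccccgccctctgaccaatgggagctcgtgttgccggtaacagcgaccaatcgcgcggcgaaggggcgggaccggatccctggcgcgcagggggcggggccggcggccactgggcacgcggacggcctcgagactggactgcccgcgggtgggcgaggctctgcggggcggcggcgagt

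Among genes tested, 8349 had a promoter entry, and a gene counted as holding an element when any of its start sites did. The E-box stood in the promoters of 9 of 37 genes that were lower at 32 to 38 h (24.3%) and of 7 of 30 that were higher (23.3%), against 12.3% of all tested genes with an entry. The RORE core stood in 4 of the 30 higher genes (13.3%; Arntl, Nfil3, Leo1 and Plin2) and in 1 of the 37 lower genes (2.7%; Gm30984), against 2.14% of all. Arntl is among these 4 and chose the sides. A D-box, TTATGTAA or TTACGTAA, stood in 2 of the 37 lower genes (5.41%; Per3 and Coq10b) and in 0 of the 30 higher genes, against 0.826% of all. These are descriptions of the letters in short windows and no test was made on them.

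Depth, recovered from the RPKM steps as whole reads, was 68334042 to 76260143 reads per library on the low side and 60036766 to 65957363 on the high side. The sides did not overlap in depth (exact two-sided permutation test, p = 0.0286, the smallest that 4 against 4 libraries allow), and the part of depth in the differences below was not tested. RPKM is set to a common depth, and the 8 scaling factors applied here lay between 0.984 and 1.02. Of 12 fibroblast markers 10 were listed, with a summed level of 6141 to 6753 RPKM on the low side and 6089 to 6449 on the high side, and 0 of them passed the test. Markers of other cell types were low on both sides. The 4 leukocyte markers listed of 10 (Cd68, Lyz2, Csf1r and Cd14) summed to 13.8 to 18 RPKM on the low side and 14.5 to 17.0 on the high side. The 2 epithelial markers (Krt14 and Cldn7) summed to 2.36 to 4.53 and 2.41 to 3.44 RPKM. In bulk RNA, fewer cells with a transcript and less of it per cell cannot be told apart.

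Between the sides, 96 of 10881 genes tested differed at an adjusted p under 0.05 by limma (0.882% of genes tested). Of these, 40 were higher at 32 to 38 h (0.368%) and 56 were lower (0.515%). The 40 count Arntl, which chose the sides, so its call is no finding. On the RPKM as deposited, without scaling between libraries, the split was 56 higher and 50 lower. The differences were mostly modest, with a median absolute log2 difference of 0.485 among the higher and 0.484 among the lower genes. Only 4 of the higher and 9 of the lower genes reached an absolute log2 difference of 1, and clock genes led both directions. In all 96 the 4 values of one side lay wholly above those of the other, as they did for 2.92% (higher) and 4.01% (lower) of all genes tested. When each of the 8 libraries was left out in turn, 15 of the 40 higher and 29 of the 56 lower genes passed every time. The count of higher genes was 25 without the 24 h library, 26 without 26 h, 15 without 34 h, 16 without 36 h and 22 without 38 h. The count of lower genes was 31 without 34 h and 36 without 36 h.

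**Figure D1:**
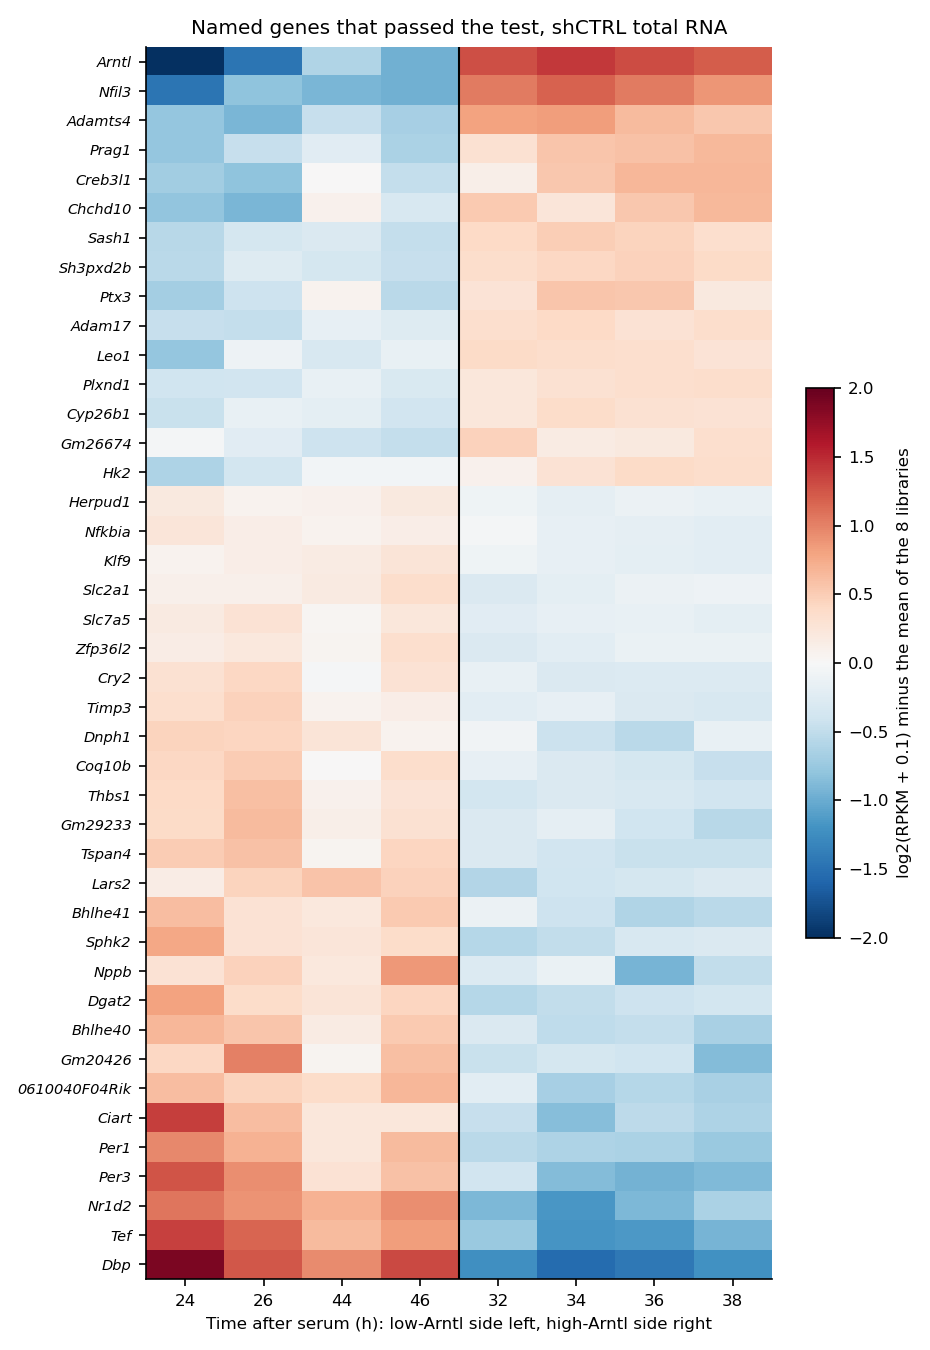
Level of 42 named genes that passed the test, as log2(RPKM + 0.1) minus the gene's mean over the 8 libraries (colour), by time after serum (columns, low-Arntl side left of the line, high-Arntl side right). Genes are ordered by the difference between the sides, from Arntl (2.61) at the top to Dbp (-2.70) at the bottom. Arntl chose the sides, so its place among them is not a test result.

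Arntl chose the sides, so its values are given as a description without a test. Its level was 1.29, 2.21, 4.09 and 3.18 RPKM at 24, 26, 44 and 46 h and 15.4, 16.9, 15.6 and 14.6 RPKM at 32, 34, 36 and 38 h. The log2 difference between the sides was 2.61. The partner of ARNTL, Clock, was at 1.51, 1.77, 2.34 and 2.13 RPKM on the low side and 2.54, 2.60, 2.41 and 2.71 RPKM on the high side. Its sides did not overlap, but the log2 difference of 0.40 ± 0.121 (SE) did not pass the test (adjusted p = 0.198). Against 24 and 26 h alone Clock differed by 0.62 (adjusted p = 0.00502), and against 44 and 46 h by 0.19 (0.485). Arntl2, the paralogue of Arntl, was low on both sides (0.465 ± 0.0638 and 0.603 ± 0.0469 RPKM, SD, n = 4) and did not pass (log2 difference 0.32, adjusted p = 0.418).

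**Figure D2:**
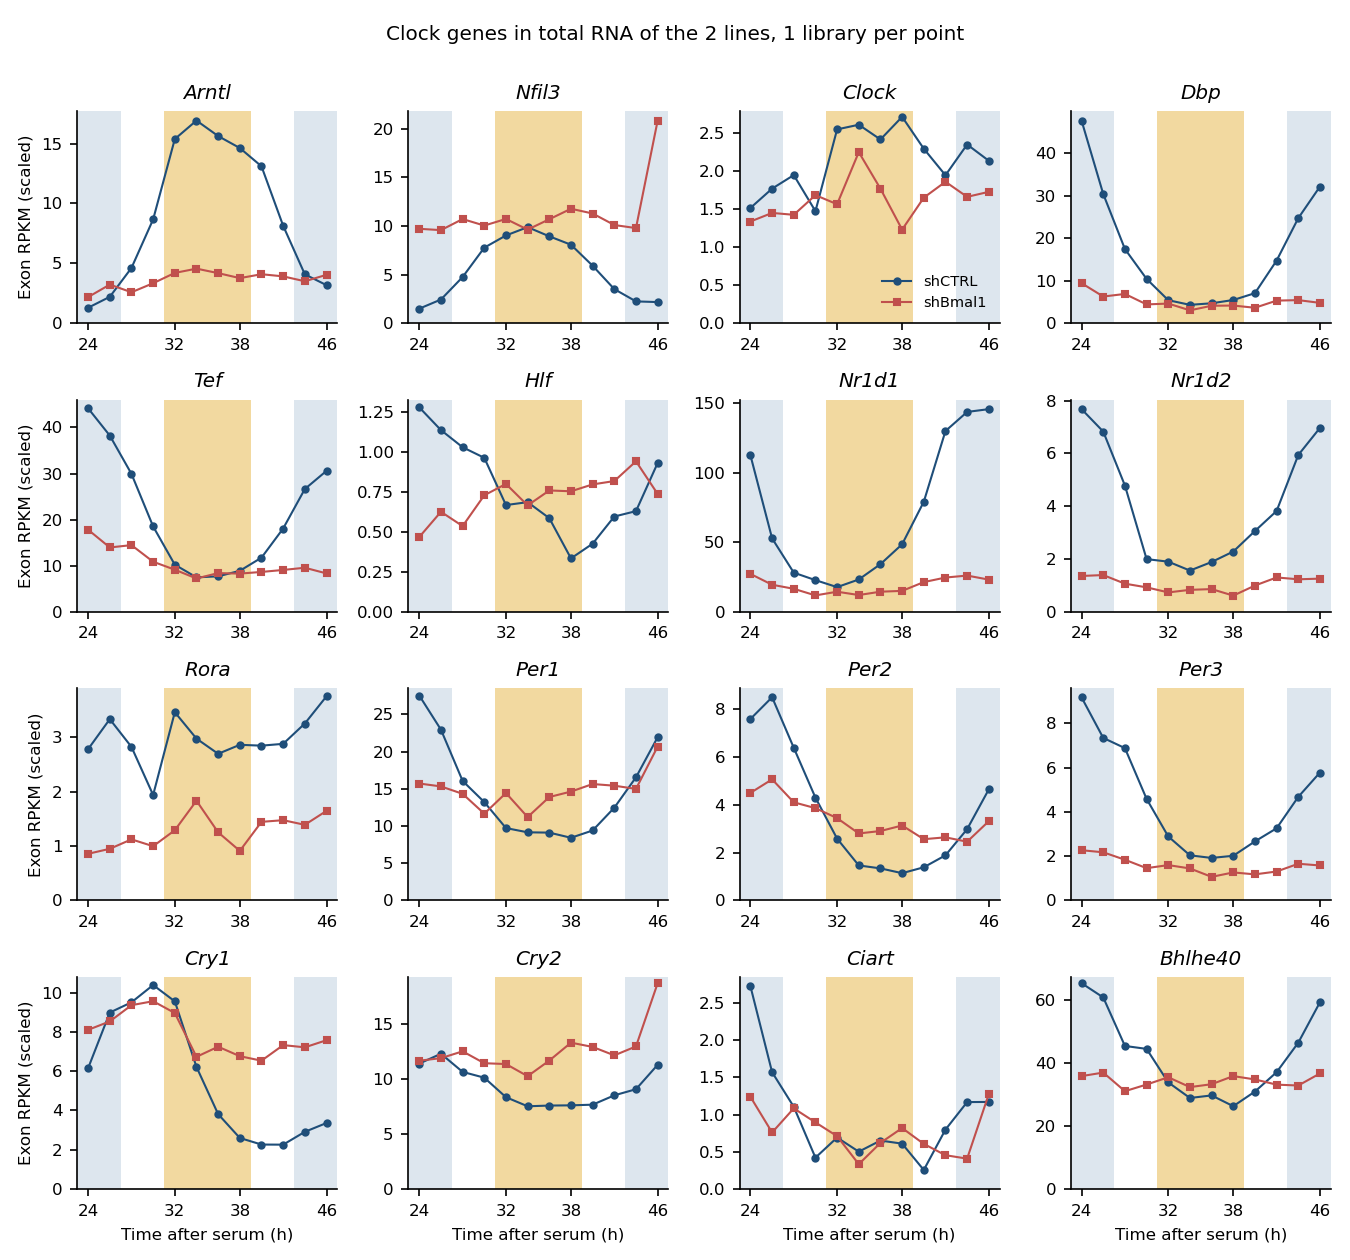
Exon RPKM (vertical axis, linear, from 0) of 16 clock genes against time after serum in shCTRL (blue circles) and shBmal1 (red squares) total RNA, 1 library per point, with all 12 time points drawn. Blue bands mark the low-Arntl and the yellow band the high-Arntl times, where shCTRL Dbp was at 24.7 to 47.6 and at 4.32 to 5.46 RPKM.

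The factors that act at D-boxes included the largest tested changes in both directions. Dbp, an activator, was at 47.6, 30.4, 24.7 and 32.1 RPKM at the low-Arntl times and at 5.41, 4.32, 4.69 and 5.46 RPKM at the high-Arntl times. It fell by 2.70 on the log2 scale (SE 0.173, adjusted p = 7.62e-05), and the sides lay far apart. Tef, a second activator of the family, went from 44.2, 38.2, 26.6 and 30.6 RPKM to 10.2, 7.48, 7.70 and 8.90 RPKM (log2 difference -2.0 ± 0.156, adjusted p = 0.000328). Both were highest in the 24 h library. Hlf, the third activator, was near 1 RPKM and its sides overlapped (0.994 ± 0.282 against 0.568 ± 0.162 RPKM, adjusted p = 0.226). Nfil3, the repressor at the same elements, went the other way. It stood at 1.5, 2.44, 2.24 and 2.17 RPKM on the low side and at 9.02, 9.87, 8.93 and 8.06 RPKM on the high side (log2 difference 2.07 ± 0.125, adjusted p = 3.35e-06). Of the 4 D-box factors, 1 thus rose and 2 fell, beside 0.368% and 0.515% of all genes tested.

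The receptors that act on Arntl through the RORE did not all pass. Nr1d2 was at 7.68, 6.83, 5.94 and 6.97 RPKM on the low side and at 1.90, 1.56, 1.89 and 2.28 RPKM on the high side. Its fall of 1.80 on the log2 scale (SE 0.110, adjusted p = 3.35e-06) shared the lowest adjusted p of all genes with Nfil3. Nr1d1 was the more abundant of the pair, with 113, 52.9, 144 and 146 RPKM on the low side and 17.8, 23.3, 34.3 and 48.6 RPKM on the high side. The sides of Nr1d1 did not overlap, but its values spread widely within each side, and the log2 difference of -1.87 ± 0.441 did not pass (adjusted p = 0.180). Over the 12 time points its lowest value was that of 32 h, and its level was higher at each later time up to 46 h. Nr1d1 overlaps Thra on the genome, and the use of strand in counting is not stated, so their reads may not be separable. Rora, an activator at the RORE, overlapped between sides (3.28 ± 0.398 and 2.99 ± 0.328 RPKM, adjusted p = 0.741).

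The PER and CRY genes, the main repressors of ARNTL and CLOCK, divided. Per1 was at 27.5, 22.9, 16.5 and 21.9 RPKM on the low side and 9.73, 9.16, 9.12 and 8.42 RPKM on the high side (log2 difference -1.26 ± 0.120, adjusted p = 0.000362). Per3 was at 9.17, 7.34, 4.68 and 5.78 RPKM and then at 2.89, 2.04, 1.92 and 2.02 RPKM (-1.54 ± 0.191, adjusted p = 0.00281). Per2 had a larger log2 difference than either, -1.75 ± 0.353, yet did not pass (adjusted p = 0.0775). Its low side was uneven, with 7.57 and 8.48 RPKM at 24 and 26 h but 2.98 and 4.64 RPKM at 44 and 46 h, against 2.58, 1.46, 1.34 and 1.14 RPKM on the high side. With a straight line in time in the model Per2 passed (adjusted p = 9.54e-05). By limma it also passed against each end of the low side. The difference was -2.30 against 24 and 26 h (adjusted p = 0.000213) and -1.21 against 44 and 46 h (0.0327). Cry2 fell by 0.49 (SE 0.0844, adjusted p = 0.0139), from 11 ± 1.37 to 7.75 ± 0.389 RPKM, and this call was lost without the 34, 36 or 38 h library (adjusted p 0.0701, 0.0561 and 0.0543).

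Cry1, the other cryptochrome gene, peaked between the sides. It was at 6.15, 8.98, 2.91 and 3.36 RPKM at the low-Arntl times and at 9.55, 6.22, 3.81 and 2.60 RPKM at the high-Arntl times. Its highest value over the 12 time points was 10.4 RPKM, at 30 h. The log2 difference was 0.03 ± 0.511 (adjusted p = 0.990). Set against 24 and 26 h it was -0.58, and against 44 and 46 h it was 0.64, neither of which passed (adjusted p = 0.558 and 0.643).

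The E-box repressors Bhlhe40, Bhlhe41 and Ciart, outside the PER and CRY families, all fell. Bhlhe40 (DEC1), a repressor that competes for E-boxes, went from 65.5, 60.9, 46.6 and 59.4 RPKM to 33.9, 29.0, 29.8 and 26.4 RPKM (-0.96 ± 0.0993, adjusted p = 0.000454). Its paralogue Bhlhe41 (DEC2) went from 2.35 ± 0.324 to 1.28 ± 0.215 RPKM (-0.83 ± 0.128, adjusted p = 0.00662). Ciart (CHRONO), which binds ARNTL, went from 2.72, 1.57, 1.17 and 1.17 RPKM to 0.692, 0.503, 0.652 and 0.610 RPKM (-1.22 ± 0.219, adjusted p = 0.0176). Ciart did not pass without the 32, 34, 36 or 38 h library, with adjusted p between 0.0508 and 0.0814. Ciart overlaps C920021L13Rik on the genome, so some of its reads may not be separable. Timeless, which was placed in the same list here, was at 2.17 ± 0.474 and 2.23 ± 0.226 RPKM and did not pass (adjusted p = 0.929). The transcript 0610040F04Rik, which overlaps Bhlhe40 on chromosome 6, was also lower (2.95 ± 0.305 to 1.38 ± 0.233 RPKM, -1.04 ± 0.118, adjusted p = 0.000701). Reads of these 2 genes may not be separable.

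The enzymes that modify and degrade clock proteins showed no call. Of 8 casein kinases, GSK3 and ubiquitin ligase genes, 0 passed by limma, with log2 differences from -0.157 (Csnk1a1) to 0.103 (Fbxw7). Csnk1d, a kinase of the PER proteins, lay between 59.8 and 64.0 RPKM in all 8 libraries. Csnk1e ran from 27.3 to 28.8 RPKM on the low side and from 25.3 to 25.8 RPKM on the high side, without overlap but also without passing (adjusted p = 0.309). On the genome Csnk1d overlaps Slc16a3 and Csnk1e overlaps Gm16059.

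Of 19 clock output genes measured, 3 fell and 1 rose, beside 0.515% and 0.368% of all genes tested. Tspan4, a tetraspanin, went from 89.2, 94.1, 65.4 and 84.6 RPKM to 51.4, 48.0, 46.1 and 46.4 RPKM (-0.78 ± 0.0932, adjusted p = 0.00108). Coq10b, a coenzyme Q binding protein, fell from 23.5 ± 3.44 to 15.0 ± 1.33 RPKM (-0.64 ± 0.0984, adjusted p = 0.00662). Klf9, a Krüppel-like transcription factor, fell by 0.32 (17.2 ± 0.952 to 13.8 ± 0.574 RPKM, adjusted p = 0.0167). Leo1, a subunit of the PAF1 complex of transcription elongation, rose from 1.33 ± 0.278 to 2.15 ± 0.0732 RPKM (0.68 ± 0.135, adjusted p = 0.035). The calls of Klf9 and Leo1 were lost in 4 and 5 of the 8 fits that left out a library. Tspan4 overlaps Chid1.

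Genes outside the clock also fell. Dgat2, which catalyses the last step of triglyceride synthesis, went from 4.12, 3.03, 2.81 and 3.16 RPKM to 1.53, 1.63, 1.73 and 1.77 RPKM (-0.92 ± 0.113, adjusted p = 0.00129). Sphk2, a sphingosine kinase gene, fell by 0.84 (adjusted p = 0.00159), but it lies on chromosome 7 from 45709463 to 45718002 and overlaps Dbp (45705100 to 45710203). Nppb, the gene of B-type natriuretic peptide, fell from 3.31 ± 0.717 to 1.71 ± 0.415 RPKM (-0.92 ± 0.174, adjusted p = 0.0254). Lars2, the mitochondrial leucyl-tRNA synthetase, fell from 5.26 ± 0.649 to 2.95 ± 0.260 RPKM (-0.81 ± 0.0984, adjusted p = 0.00122). Smaller falls were those of Thbs1 (thrombospondin 1, -0.69 ± 0.087), Dnph1 (a nucleotide hydrolase, -0.59 ± 0.112) and Timp3 (a metalloproteinase inhibitor, -0.49 ± 0.0779). Timp3 lies within Syn3, which was lower by a like amount. The transcripts Gm20426 and Gm29233, whose function is not given here, were also lower, by -1.03 and -0.71. Gm20426 had as few as 6 reads in a library. Calls were lost without the 24, 26, 34 or 36 h library for Dnph1 (adjusted p up to 0.112), without 26, 32, 36, 38 or 46 h for Nppb (up to 0.103) and without 24, 32, 34, 36, 38 or 46 h for Gm20426 (up to 0.0985). Without 26 h the mean of Gm20426 fell under the minimum level and it was not tested.

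Outside the clock, the largest rise was that of a matrix protease. Adamts4, an aggrecan-cleaving protease, was at 1.07, 0.957, 1.35 and 1.16 RPKM at the low-Arntl times and at 3.40, 3.48, 3.00 and 2.82 RPKM at the high-Arntl times (1.41 ± 0.114, adjusted p = 3.9e-05). Adam17, which sheds TNF and EGF receptor ligands from the cell surface, went from 7.75, 7.68, 9.56 and 8.92 RPKM to 13.5, 14.2, 13.1 and 13.7 RPKM (0.68 ± 0.0726, adjusted p = 0.000458). Sh3pxd2b (TKS4), a scaffold of podosomes, went from 22.3, 27, 25.5 and 23.5 RPKM to 41.2, 43.3, 44.4 and 42.2 RPKM (0.80 ± 0.0612, adjusted p = 2.57e-05). Sash1, a signalling adaptor, went from 21.5, 24.9, 25.9 and 22.9 RPKM to 42.1, 44.8, 43.2 and 40.1 RPKM (0.84 ± 0.0635, adjusted p = 2.57e-05). Within each side these last genes varied little, and the gap between the sides was several times the spread. Adamts4 and Adam17 each overlap another gene on the genome, so some of their reads may not be separable.

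The other named genes that rose did so from lower levels or by less. Prag1, a pseudokinase, went from 1.42 ± 0.252 to 3.02 ± 0.316 RPKM (1.05 ± 0.124, adjusted p = 0.00108). Plxnd1, a semaphorin receptor, went from 7.94 ± 0.663 to 12.1 ± 0.484 RPKM (0.61 ± 0.0659, adjusted p = 0.000528). Cyp26b1, which degrades retinoic acid, went from 3.15, 3.90, 3.78 and 3.29 RPKM to 5.07, 5.60, 5.38 and 5.32 RPKM (0.59 ± 0.0807, adjusted p = 0.00286). Creb3l1 (0.99), Chchd10 (0.98), Ptx3 (0.78) and the transcript Gm26674 (0.58) also passed, with adjusted p from 0.0167 to 0.0475. Each of these 4 lost its call in at least 4 of the 8 fits that left out a library. Their levels stayed under 3 RPKM in every library.

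The other gene groups gave few or no calls. Their counts are to be read beside the 0.368% of all genes tested that were higher and the 0.515% that were lower. Of 20 matrix proteases and inhibitors 2 rose (Adamts4 and Adam17) and 2 fell, Timp3 among them, with a median log2 difference of 0.06, against 0.00354 over all genes tested. Of 28 collagen and matrix genes 1 fell, Thbs1, and of 20 glycolysis and hypoxia genes 1 rose and 1 fell. The riser was Hk2, a hexokinase (4.09, 4.89, 6.07 and 6.08 RPKM to 6.74, 7.77, 8.29 and 8.09 RPKM, 0.55 ± 0.116, adjusted p = 0.0475), which lost its call in 6 of 8 fits without a library. The faller was Slc2a1, the glucose transporter GLUT1 (49.3, 49.3, 51.9 and 58.6 RPKM to 37.6, 40.1, 42.2 and 42.6 RPKM, -0.36 ± 0.0646, adjusted p = 0.0176). A single member fell in 4 more lists. These were Nfkbia, the NF-kB inhibitor (-0.30), among 20 inflammatory genes, and Herpud1 (-0.27) among 20 genes of the unfolded protein response. The others were Slc7a5, an amino acid transporter (-0.37), among 21 ATF4 genes, and Zfp36l2, an mRNA decay factor (-0.38), among 33 genes of mRNA decay. Slc2a1 (adjusted p = 0.0818) and Zfp36l2 (0.0543) lost their calls without the 34 h library. Those of Nfkbia and Herpud1 were lost in 6 and 5 of the 8 fits without a library. In the adhesion, actin, TGF-beta, p53, immediate early, interferon, heat shock, NRF2, cholesterol, oxidative phosphorylation, ribosomal protein, splicing and growth factor lists 0 genes passed by limma at an adjusted p under 0.05.

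**Figure D3:**
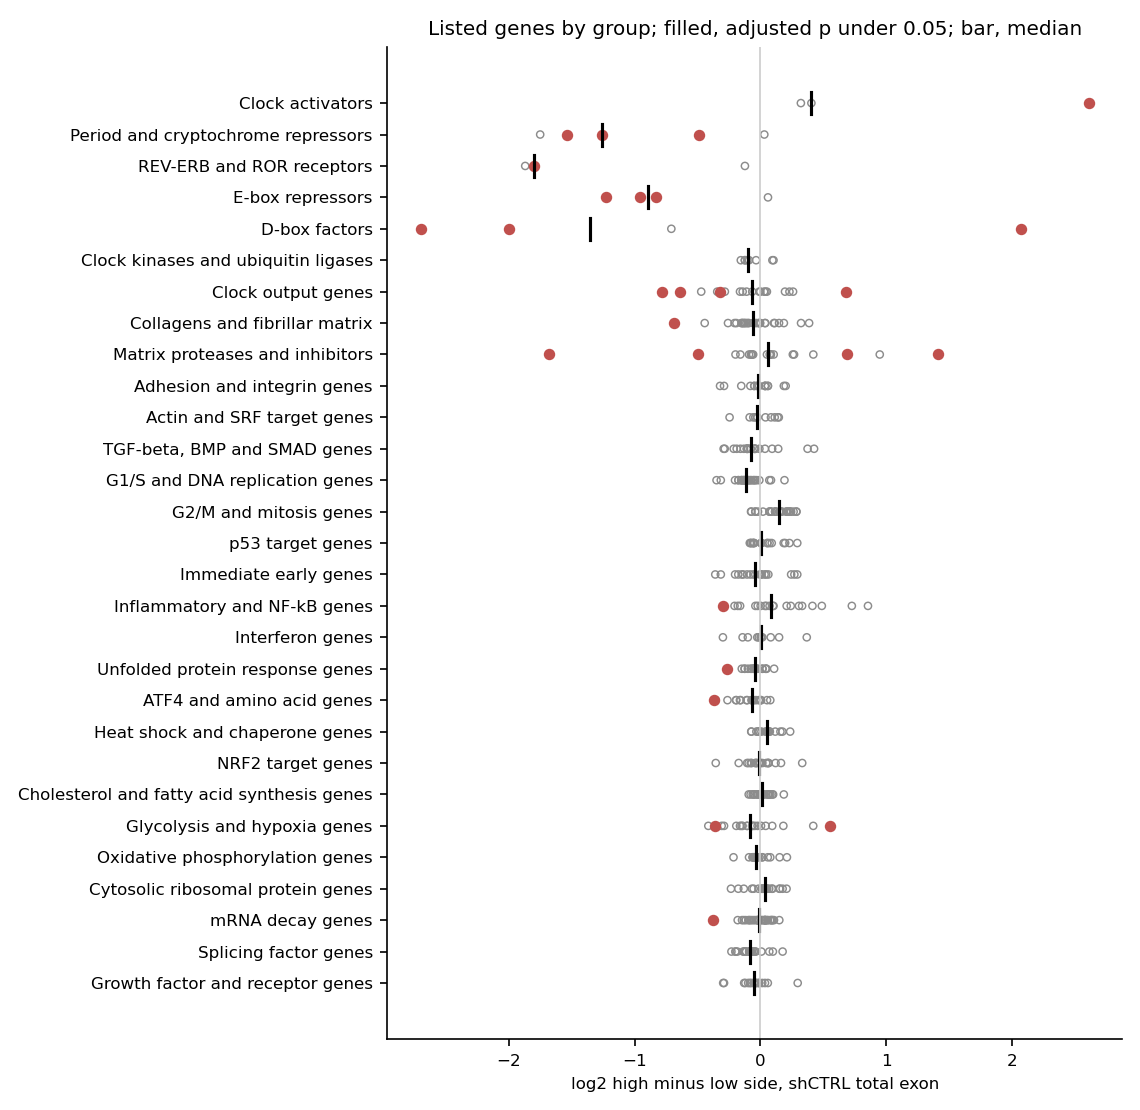
Log2 difference between the sides (horizontal axis, high minus low Arntl times) of every tested gene in 29 lists, with filled points for adjusted p under 0.05 and a bar at each list's median. The points furthest from 0 are Dbp (-2.70) and Arntl (2.61).

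Because the low side is made of an early and a late stretch, each was also compared alone. Against 24 and 26 h, 510 genes differed at 32 to 38 h (4.69%), 2.22% of genes tested being higher and 2.46% lower. Against 44 and 46 h, 162 did (1.49%), 0.754% higher and 0.735% lower. These contrasts share the 4 high-side libraries. The late and the early stretch differed from each other in 467 genes (4.29%), with 1.89% higher and 2.40% lower at the late end. A total of 61 genes (0.561%) passed against both ends in the same direction, 21 higher and 40 lower, among them 21 of the 40 and 39 of the 56 genes above. That count was 36 without the 34 h library, 38 without 44 h and 14 without 46 h. Arntl aside, Nfil3 stood 2.17 and 1.97 above the early and the late end, and Dbp stood at -2.92 and -2.49.

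Genes of mitosis differed mainly between the early and the late end. Of 27 G2/M genes 0 passed between the sides by limma, although 22 had a difference above 0. Their median was 0.148, against 0.00354 over all genes tested. Against the early end 5 were lower and 0 higher, with a median of -0.21, beside 2.46% and 2.22% of all genes tested. Against the late end 11 were higher and 0 lower, with a median of 0.58, beside 0.754% and 0.735% of all. Between the late and the early end 20 of 27 were lower, with a median of -0.70, beside 2.40% of all genes tested. The epithelial marker Krt14 was also lower at the late end, with 4.32 and 4.13 RPKM at 24 and 26 h and 2.13 and 2.58 RPKM at 44 and 46 h (-0.82, adjusted p = 0.00974), and its part in this result was not tested. Plk1, a mitotic kinase, was at 19.3 and 17.3 RPKM at 24 and 26 h, at 15.7, 14.0, 14.6 and 15.7 RPKM from 32 to 38 h, and at 9.41 and 9.05 RPKM at 44 and 46 h. Cenpa, the centromeric histone, fell by 1.07 from the early to the late end (adjusted p = 0.000102). Of 27 G1/S genes 0 passed between the sides, 2 were lower against the early end and 0 passed against the late end.

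**Figure D4:**
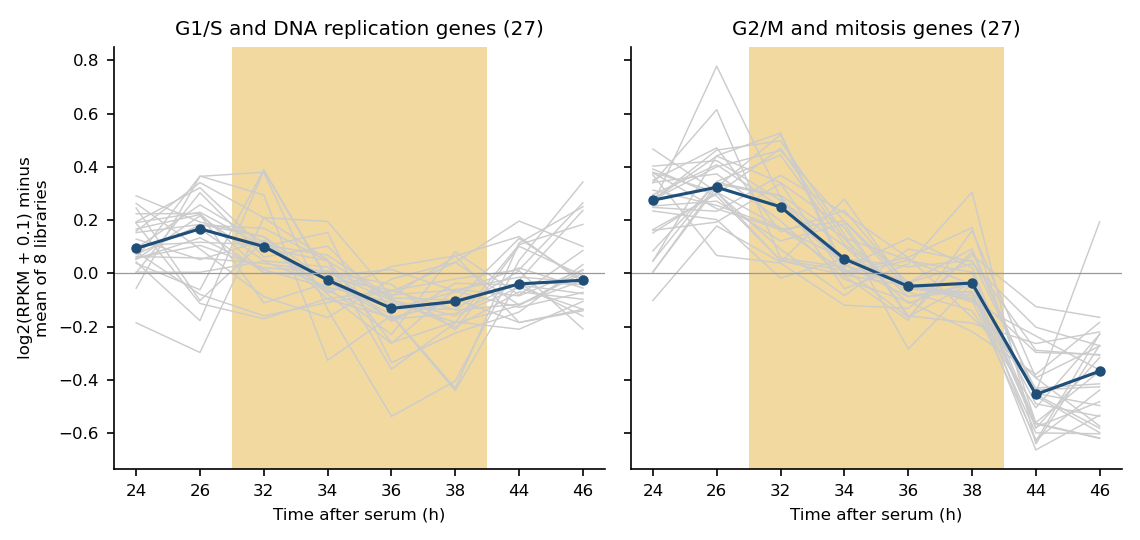
Level of 27 G1/S and 27 G2/M genes in the 8 shCTRL libraries, as log2(RPKM + 0.1) minus each gene's mean (vertical axis), by time after serum, with grey lines for genes and blue for the median. The yellow band marks the high-Arntl times. At 44 and 46 h 20 of the 27 G2/M genes were lower than at 24 and 26 h, beside 2.40% of all genes tested.

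In the shBmal1 line Arntl, the gene its hairpin targets, was at 2.19, 3.23, 3.51 and 4.04 RPKM at 24, 26, 44 and 46 h and at 4.20, 4.56, 4.18 and 3.77 RPKM at 32, 34, 36 and 38 h. These levels lay below those of shCTRL at the high-side times and among them at the low-side times. The gene length behind RPKM differs between the lines for some genes, so levels were not tested across lines. By limma 0 of 10918 genes passed between the sides in this line. An unadjusted p under 0.05 was found for 115, which is below the share of 0.05 due with no difference in any gene. On simulated data, the fit in this line called 4% of genes changed by 0.25 on the log2 scale and 50% of those changed by 0.5. In shCTRL it called 30% and 76%, so 0 calls in shBmal1 cannot be read as no difference. Without the shBmal1 library of 44 h 1 gene passed, Mttp, a lipid transfer protein, named after its value was seen (log2 difference 2.45, adjusted p = 0.000353). Of the 56 genes lower in shCTRL 42 were also below 0 in shBmal1, with a median of -0.124 against -0.484. Of the 40 higher genes 26 were above 0, with a median of 0.049 against 0.485. Without the shBmal1 library of 46 h these medians were -0.074 for the lower genes, with 42 of 56 below 0, and 0.106 for the higher genes, with 31 of 40 above 0. These genes were chosen for their size in shCTRL, so the medians of the lines cannot be weighed as a test.

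The difference between the lines was tested gene by gene, and 10 of 10920 genes passed (0.0916%), Arntl among them, 5 in each direction (0.0458% each). Arntl chose the sides and is the target of the hairpin, so its place here is no finding. In this test 330 genes had an unadjusted p under 0.05, again below the share of 0.05 due with no difference in any gene. With the time point, which the lines share, as a block the count was 20. On simulated data the test without the block called 6% and 28% of genes changed by 0.25 and 0.5 on the log2 scale. Among the 10, the rise was larger in shCTRL for Nfil3, Adamts4, Cyp26b1 and Sh3pxd2b, as well as Arntl. The fall was larger in shCTRL for Dbp, Tef, Nr1d2, Bhlhe40 and 0610040F04Rik. Nfil3 was at 9.70, 9.56, 9.77 and 20.8 RPKM at the low-side times in shBmal1 and at 10.7, 9.62, 10.7 and 11.8 RPKM at the high-side times. The difference between the lines was 2.20 ± 0.274 for Nfil3 (adjusted p = 0.00246). Bhlhe40 ran from 32.9 to 37.1 RPKM on the low side and 32.4 to 35.9 RPKM on the high side of shBmal1, a difference between the lines of -0.91 ± 0.133 (adjusted p = 0.00741). Dbp, Tef and Nr1d2 had log2 differences below 0 in shBmal1, -0.65 ± 0.194, -0.51 ± 0.199 and -0.72 ± 0.144 none of which passed there (adjusted p of 1.00 for each). Cyp26b1 was at -0.26 ± 0.126 in shBmal1, on the other side of 0 from shCTRL (0.59). Per1 (adjusted p = 0.0517), Per2 (0.575) and Dgat2 (0.575) did not pass the test of the difference.

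The shBmal1 library of 46 h stood apart for some genes. Nfil3 (20.8 RPKM), Cry2 (18.7 RPKM) and Slc7a5 (68.3 RPKM) were each highest there of all 12 shBmal1 times. Without it 8 genes passed the test between the lines. Per1 was added (adjusted p = 0.0155), and Adamts4 (0.0528), Tef (0.0536) and Cyp26b1 (0.0581) were lost. The count was 5 without the shCTRL library of 24 h, and 6 without that of 34, 36 or 46 h or the shBmal1 library of 36 or 38 h.

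The RNA newly labelled with 4sU and the intron reads are readouts that did not enter the choice of the genes. They are not independent of it, because total introns come from the same 8 libraries and 4sU RNA from the same extracts. In 4sU exon RPKM 111 of 10983 genes passed between the sides (1.01%), 0.455% of genes tested being higher and 0.555% lower. In 4sU intron RPKM 63 of 10678 passed (0.59%), 0.375% higher and 0.215% lower, and in total intron RPKM 33 of 10049 (0.328%), 0.189% higher and 0.139% lower. Of the 56 lower genes, 55 of 56 had the same sign in 4sU exon RPKM and 35 passed there. In 4sU introns 53 of 55 had the same sign and 12 passed. Of the 40 higher genes, 39 of 40 had the same sign in 4sU exon RPKM and 25 passed, and all 39 measured in 4sU introns had the same sign, of which 14 passed. Arntl, which chose the sides, is among the 40. How often the signs match over all genes tested was not computed, so these counts have no baseline. The total over all genes in 4sU exons was 48 to 68 without the 34, 36 or 38 h library and 213 without 44 h. In 4sU introns it was 20 to 29 without the 24, 32, 34, 36 or 38 h library, and in total introns 12 to 14 without the 24, 34, 36, 38 or 46 h library.

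**Figure D5:**
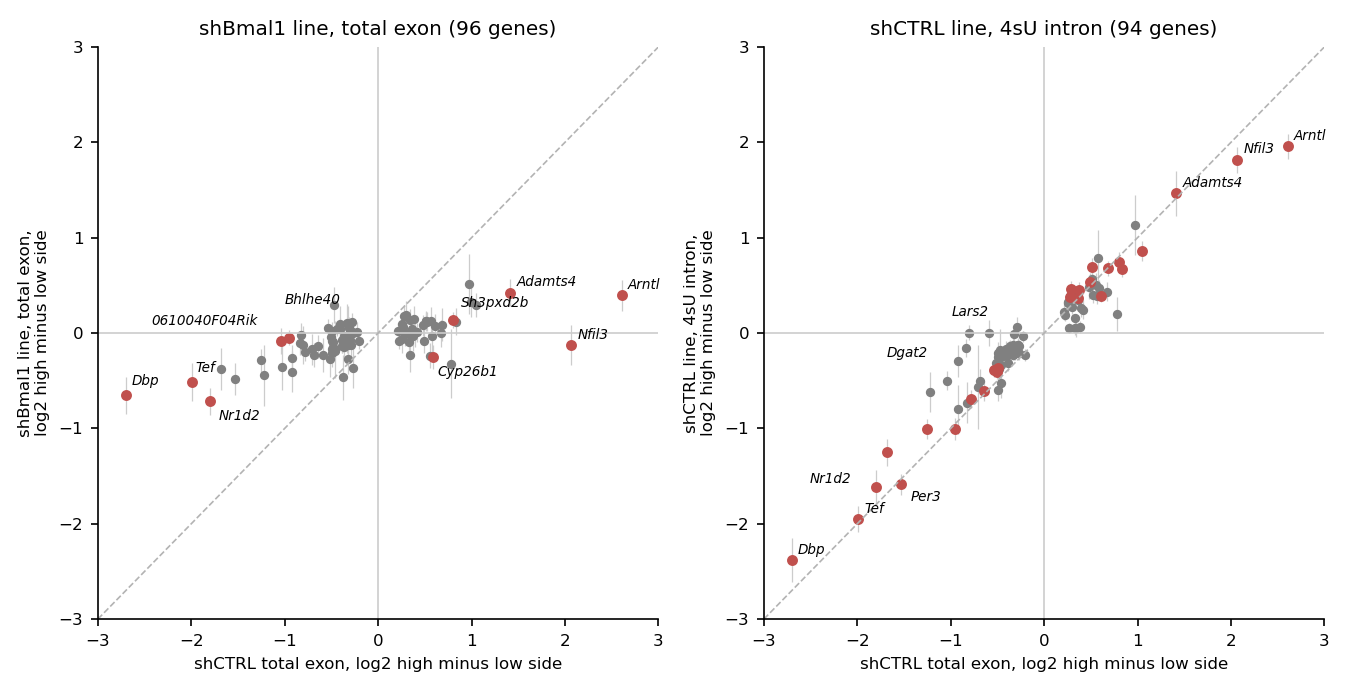
Log2 difference between the high and low Arntl times of the 96 genes in shCTRL total RNA (horizontal axes) against the same difference in shBmal1 total RNA (left) and in shCTRL 4sU introns (right, 94 genes), with bars of 1 SE. Red points passed the test between the lines (left) or within 4sU introns (right), and the dashed line marks equal values: Nfil3 lies at -0.13 on the left and at 1.82 on the right.

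Most of the clock genes that passed in total exons also passed in the introns of newly made RNA. In 4sU introns the log2 difference was -2.38 ± 0.230 for Dbp, -1.95 ± 0.140 for Tef, -1.62 ± 0.183 for Nr1d2 and -1.59 ± 0.107 for Per3. For Nfil3 it was 1.82 ± 0.137 and for Adamts4 1.46 ± 0.239. Per2, which did not pass in total exons, passed in 4sU introns (-1.88 ± 0.253, adjusted p = 0.0173). Ciart was at -1.22 in total exons and at -0.62 ± 0.210 in 4sU introns, where it did not pass (adjusted p = 0.269). Dgat2 was at -0.92 in total exons, -0.74 in 4sU exons, -0.29 ± 0.164 in 4sU introns and -0.10 in total introns. Nr1d1 was at -1.87 and -1.95 in total and 4sU exons but at -0.35 and -0.42 in the introns of the same RNAs. Lars2 was at -0.81 in total exons, 0.41 in 4sU exons and 0.00 in 4sU introns. Differences between readouts of a gene were not tested.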

How the data were processed

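Total RNA was rRNA-depleted and made into strand-specific paired-end libraries, per the labels' protocols. The authors deposited RPKM per gene for exons and introns, normalised by library depth and gene length. The submitters' processing notes name Trim Galore, HOMER 4.11.1, mm10 and GRCm38.p6, and the aligner and the use of strand in counting are not given in the sources used here. RPKM was divided by a median-ratio factor per library and tested as log2(RPKM + 0.1), or + 0.02 for introns. Fold changes are on that scale and come out too small for genes of low level. The test took genes whose mean was 0.5 RPKM or more (introns 0.1) and was run with limma 3.58.1 in R 4.3.3, with trend and robust options, and Benjamini-Hochberg adjustment over all of them. The 4 high-side libraries were set against the 4 low-side libraries, against each end of the low side, and against the same contrast in shBmal1. Depth was recovered from the RPKM steps, which gave whole reads for 11311 of 11313 genes within 0.01. Spike-ins were not analysed here, and a few results are not reported here.

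On simulated data for the contrast in shCTRL total exons, over 10881 genes, the test called 30%, 76%, 100% and 100% of genes changed by 0.25, 0.5, 1 and 2 on the log2 scale, and 0.0655% of unchanged genes. The simulated noise was independent between libraries, without drift, a tie between neighbouring times or a depth difference between the sides. These rates may therefore not carry over to the real libraries. The named genes are all measured clock genes and called clock outputs, and the 12 largest called changes per direction outside them with sides that do not overlap and the same sign against both ends. They also include up to 4 called genes of each other list, or its largest change where none was called, and up to 6 genes per direction that differed between lines. The time points, gene lists and rules were chosen with earlier results of these data known. Promoters come from RefSeq, and 90 of the 96 called genes matched RefSeq by symbol. Alternatives covered pseudocount, filter, scaling, libraries in the fit, time covariates and the model's options. Leaving out each shBmal1 library was chosen after seeing the data.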

Additional observations from a re-analysis of the deposited data

Results flagged for a closer look

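In 5 of 158 sets of 4 libraries examined, the highest or lowest library stood apart from the other 3, with a gap to its nearest neighbour larger than Dixon's critical share of the range for 4 values. Chance gives this in about 1 in 20 sets. The 32 h library was highest of the high side in 4 of them. Per3 was at 2.89 RPKM there against 2.04 in the next library (gap 0.878 of the range), and Cry2 at 8.33 against 7.59 RPKM (0.897). Timeless was at 2.57 against 2.13 RPKM (0.965), and Bub1, a mitotic checkpoint kinase, at 2.07 against 1.46 RPKM (0.921). Mvd, an enzyme of cholesterol synthesis, was at 66.0 RPKM at 24 h against 51.1 RPKM in the next low-side library (0.876).

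For 9 genes other than Arntl the contrast differed between the lines. The shCTRL minus shBmal1 difference was 2.20 for Nfil3, 0.994 for Adamts4, 0.845 for Cyp26b1 and 0.662 for Sh3pxd2b on the log2 scale. It was -2.05 for Dbp, -1.48 for Tef, -1.08 for Nr1d2, -0.96 for 0610040F04Rik and -0.909 for Bhlhe40. Without the shBmal1 library of 46 h, Adamts4 (adjusted p = 0.0528), Tef (0.0536) and Cyp26b1 (0.0581) did not pass.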

How the results depend on the processing

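No named gene called between the shCTRL sides in total exons changed direction under the alternatives. The direction of the other called genes was not followed through them. Among named genes that did not pass, Cry1, Timeless, Bub1, Krt14, Plin4 and Des changed sign under at least 1 alternative that left out libraries (Cry1 from 0.03 to -0.58 without 44 and 46 h). The counts of 40 higher and 56 lower genes became 126 and 130 with a straight line in time, 19 and 30 with all 16 libraries of both lines, and 18 and 31 by limma without its trend and robust options. They became 189 and 183 without 44 and 46 h and 272 and 317 with a 24-h cosine over 12 libraries, and 79 genes were higher without 24 and 26 h. Leaving out each library in turn gave 15 to 50 higher and 31 to 68 lower genes, and 14 to 90 differing from both ends. It gave 5 to 14 genes differing between the lines, 0 to 1 in shBmal1, 12 to 30 in total introns, 48 to 213 in 4sU exons and 20 to 63 in 4sU introns. The count between the lines, 10, was 5 with a mean of at least 5 RPKM, 20 with the time point, which the lines share, as a block and 6 with 24 libraries. Fits without a library have fewer samples, and the cause of the other shifts was not tested. Counting error limits genes with few reads, such as Gm20426 with 6 in a library. Between the sides of 1 line, no paired analysis was possible because the sides share no time point and no number in the labels ties their libraries together.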

Other observations

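The gene families in this section were drawn up after the values had been seen, so their counts are descriptions, to be read beside the 0.368% of all genes tested that were higher and the 0.515% that were lower. Of 15 ADAM and ADAMTS protease genes tested, 4 were higher at 32 to 38 h and 0 lower by limma, with a median log2 difference of 0.073. Besides Adamts4 and Adam17 these were Adam19 (9.29 ± 0.83 to 13.0 ± 0.562 RPKM, SD, n = 4, 0.48 ± 0.0679, adjusted p = 0.00347) and Adamts14 (5.98 ± 0.319 to 7.62 ± 0.451 RPKM, 0.34 ± 0.0664, adjusted p = 0.0283). Adamts14 passed in 2 of the 8 fits that left out a library, and the other 3 in all 8. F3, the gene of tissue factor, was lower and went from 29.7 ± 1.91 to 22.6 ± 1.04 RPKM (-0.39 ± 0.0584, adjusted p = 0.0053). Of 11 KLF transcription factor genes 2 were lower, Klf9 and Klf11 (5.81 ± 0.457 to 4.1 ± 0.0672 RPKM, -0.49 ± 0.0696, adjusted p = 0.0041), with a median of -0.080.

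Of 12 genes that handle retinoids, 2 were higher and 1 lower, with a median of 0.016. Cyp26b1, which degrades retinoic acid, and Dhrs3, which reduces retinaldehyde to retinol, were higher (Dhrs3 from 4.81 ± 0.641 to 6.95 ± 0.794 RPKM, 0.52 ± 0.103, adjusted p = 0.0311). Rdh10, which oxidises retinol to retinaldehyde, was lower (26.3 ± 2.62 to 19.3 ± 0.835 RPKM, -0.44 ± 0.0689, adjusted p = 0.00754). Dhrs3 passed in 2 of the 8 fits that left out a library, and it overlaps Vps13d. The metal-binding protein gene Mt2 was higher (440.4 ± 12.9 to 524.7 ± 30.3 RPKM, 0.25 ± 0.0511, adjusted p = 0.0395) but passed in 1 of the 8 fits that left out a library, while Mt1 did not pass (0.16, adjusted p = 0.256).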
